A study of Mus musculus with 10 samples.

Results

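The 10 genes described here belong to the circadian clock and its immediate outputs and were followed in mouse aortic arch: the activators Arntl and Clock, the repressors Per1, Per2, Per3 and Cry1, the nuclear receptors Nr1d1 and Nr1d2, and the output transcription factors Dbp and Tef. They were chosen by gene symbol in the platform annotation. Of the 10, 9 had a probe among the 13872 on the array (12 probes in all), 7 had a value on at least 1 array, and 3 (Clock, Per2 and Nr1d2) had enough values to be tested. Nr1d1 had no probe under its symbol, and Dbp and Tef were blank on all 10 arrays, so these 3 genes were not analysed here.

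The comparison was of mice lacking both apolipoprotein E and the adaptor protein MyD88 (ApoE-/-,MyD88-/-, called double-null) with mice lacking apolipoprotein E alone (ApoE-/-, called apoE-null). Both groups therefore lack apolipoprotein E, through which lipoproteins are taken up by the liver, and are prone to atherosclerosis. MyD88 carries signals from Toll-like and interleukin-1 receptors. A two-colour array set 1 double-null mouse against 1 apoE-null mouse. There were 5 such pairs with 2 arrays each, 1 for either dye orientation, so the replicate is the pair (n = 5) and its arrays share their RNA. Both mice were female in pair 1 and male in pairs 2 to 4. In pair 5 the double-null animal was male and the apoE-null animal female. The labels of 8 arrays give a high fat diet of 8 weeks; the sources used here give no age, strain background or hour of collection. In pair 1 the mouse numbers trade genotypes between the arrays, and the genotype labels were followed. Values are log2 ratios with the double-null mouse in the numerator, turned from the deposited direction, so a negative value means less transcript in the double-null mouse.

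In background, the mammalian clock is a loop of transcription that runs in most cells, including the smooth muscle, endothelium and macrophages of the vessel wall. The proteins of Arntl and Clock bind E-boxes and switch on the Per, Cry, Nr1d, Dbp and Tef genes. The Per and Cry proteins then inhibit that complex, the Nr1d receptors repress Arntl, Clock, Cry1 and Nfil3 through ROR elements, and the products of Dbp and Tef act at D-boxes, where the Nfil3 protein opposes them. In peripheral tissues of the mouse Arntl and Clock transcripts are highest near the end of the night, and those of the Nr1d, Dbp, Tef and Per genes in the day and evening, so that the arms of the loop run in opposite phase.

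The sequences that these factors read are shown here for the genes whose values follow, because the loop connects Nr1d2 to Arntl and Nfil3. Windows of 250 bases before to 50 after each start were taken from RefSeq (build GRCm38.p6), which held entries for 9 of the 10 members and none for Per2. Both strands were searched for the E-box CACGTG, for the D-box core TTANGTAA and for the ROR element core TAGGTCA; these occur in 7.15%, 2.32% and 2.61% of all 32851 windows, and the 3 motifs do not overlap in the matches shown. Of the 9 members, 5 had a match. The match is in capitals, each line runs 5′ to 3′ on the strand of the gene, and positions are counted from the start site.
Arntl, ROR element core at 31, chr7:113207530-113207559, plus strand: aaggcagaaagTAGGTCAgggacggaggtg
Nfil3, the same core on the opposite strand at -12, chr13:52981033-52981062, minus strand: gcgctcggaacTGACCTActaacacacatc
Cry1, E-box at -60, chr10:85185097-85185126, minus strand: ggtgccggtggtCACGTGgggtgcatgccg
Per1, E-box at -166, chr11:69098771-69098800, plus strand: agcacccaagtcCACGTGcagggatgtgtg
Per3, D-box at -205, chr4:151044852-151044881, minus strand: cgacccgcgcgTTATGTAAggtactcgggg
Per3, D-box at -158, chr4:151044805-151044834, minus strand: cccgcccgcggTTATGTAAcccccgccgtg
Tef held an E-box in the window of each of its 2 starts.

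Nr1d2 and Clock, the members with a value on every array, had none of these letters in their windows. The 250 bases before the start of Nr1d2 and before the first listed start of Clock are given in full, since the results turn on these genes; 63.6% and 76.4% of the bases were G or C.
Nr1d2, chr14:18239107-18239356, minus strand: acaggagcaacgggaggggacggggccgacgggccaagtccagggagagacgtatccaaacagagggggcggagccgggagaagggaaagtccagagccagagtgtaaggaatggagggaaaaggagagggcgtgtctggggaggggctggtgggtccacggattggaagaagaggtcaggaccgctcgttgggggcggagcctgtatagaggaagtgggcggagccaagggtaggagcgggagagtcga
Clock, chr5:76304793-76305042, minus strand: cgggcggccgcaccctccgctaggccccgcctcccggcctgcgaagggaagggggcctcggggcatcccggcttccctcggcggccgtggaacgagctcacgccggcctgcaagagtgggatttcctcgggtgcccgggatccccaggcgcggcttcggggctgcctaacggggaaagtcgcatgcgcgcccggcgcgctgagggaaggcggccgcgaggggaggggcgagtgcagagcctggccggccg

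Each array gave between 4581 and 7057 values. The disrupted gene Myd88 was below 0 on all 10 arrays (mean log2 ratio -0.90 ± 0.22, SD, n = 5 pairs, limma adjusted p = 0.0248). In pair 5 the female-specific Xist lay between -5.29 and -3.23 on 2 probes and the Y-linked Eif2s3y at 1.93 and 2.63, matching the labelled sexes. The clock probes held a value in 45 of 120 cells (37.5%), against 41.4% of cells over the whole table; 28 of the 45 were on arrays where channel 1 held the double-null RNA and 17 on the others. Signal over background is unknown here, so the number of arrays limits the precision.

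None of the 3 clock genes tested passed the limma test of a difference between the genotypes over the 5 pairs. At an adjusted p under 0.05 the count was 0 of 3, against 0.781% of all 4866 probes (0.814% of genes). At an unadjusted p under 0.05 limma also gave 0 of 3, against 488 of 4866 probes. For the dye effect limma called 0 of the 3, against 4.75% of probes, and 0 had an unadjusted p under 0.05, against 1041 of 4866 probes. All 3 means were below 0, as were those of 2508 of all 4299 genes, with a median of -0.37 beside -0.04 over all genes. The pairs themselves differed: Nr1d2 was lower in the double-null mouse of 4 pairs and higher in the fifth, and Clock was lower in 3 and higher in 2. In each of the 15 pair values of the members that had both arrays, the 2 dye orientations gave the same sign, against 61.2% of pair values over all probes. Over all probes the 2 arrays of a pair agreed weakly in some pairs. Their correlation was 0.56, 0.31, 0.04, 0.19 and 0.46 in pairs 1 to 5, lowest in the male pairs 3 and 4.

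**Figure D1:**
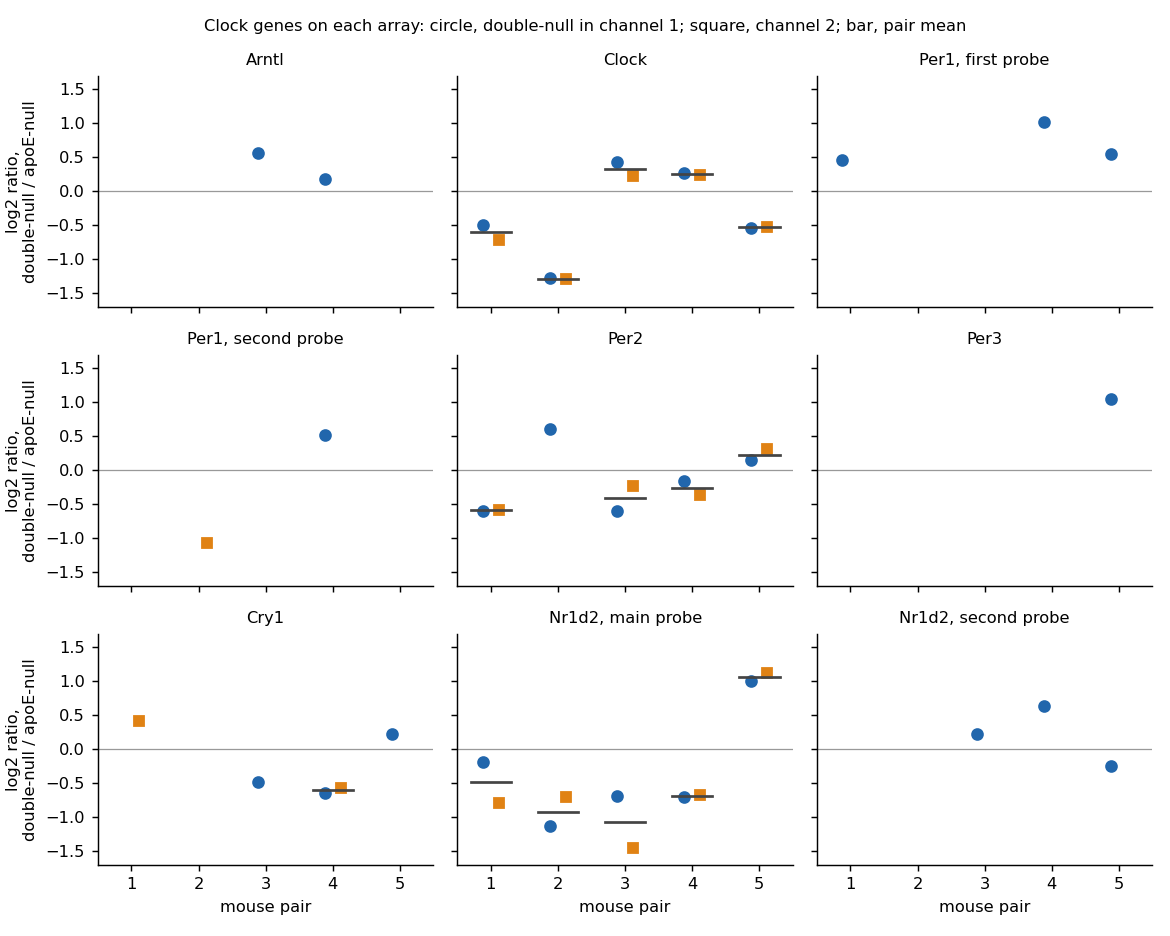
Log2 ratio (double-null over apoE-null, y axis) of each clock probe with a value, on each array, by mouse pair (x axis). Circles mark double-null RNA in channel 1, squares in channel 2, and bars the pair means where both arrays have a value; Nr1d2 lies below 0 in pairs 1 to 4 and near 1.07 in pair 5, and the Clock symbols of a pair nearly coincide.

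Among the receptors that repress the activator arm, Nr1d2 (the gene of REV-ERBβ) had values on both arrays of every pair. Its main probe read -0.19 and -0.79 on the 2 arrays of pair 1, -1.13 and -0.70 in pair 2, -0.69 and -1.45 in pair 3, -0.71 and -0.67 in pair 4, and 1.01 and 1.13 in pair 5. The 8 arrays of pairs 1 to 4 were all below 0 and the 2 arrays of pair 5 above it, with no overlap. The mean was -0.42 ± 0.86 (SD, n = 5 pairs, 1.34-fold lower; 95% interval -1.08 to 0.24; limma adjusted p = 0.620).

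In the 3 male pairs alone, the only setting in which it was called, the main Nr1d2 probe read 1.85-fold lower in double-null aorta. Its pair values there were -0.92, -1.07 and -0.69, with a mean of -0.89 ± 0.19 (SD, n = 3 pairs, limma adjusted p = 0.0259), where 1.43% of 3854 probes were called and 0.752% called lower. Without pair 5 the mean was -0.79 ± 0.26 (SD, n = 4 pairs), and the gene did not pass (limma adjusted p = 0.0622, with 0.345% of probes called lower); leaving out any other pair gave between -0.40 and -0.26. The female pair, at -0.49, was set against the male pairs in limma; that difference did not pass (adjusted p = 0.598), but the test rests on 1 female pair and called 0.265% of probes.

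Pair 5 lay 1.86 ± 0.33 (SE) above the mean of the other 4 pairs. This comparison was chosen because the pair stood apart, and it did not pass over 3612 probes (limma adjusted p = 0.334), where 0 probes passed and 153 had an unadjusted p under 0.05. Of all probes with 5 pair values, 9.36% had one sign in pairs 1 to 4 and the other in pair 5. In pair 5 the genotypes also differ in sex, so genotype and sex cannot be told apart there.

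The second Nr1d2 probe did not follow the main one. It had values on 3 arrays, all with double-null RNA in channel 1, and read 0.22 in pair 3, 0.64 in pair 4 and -0.24 in pair 5, where the main probe read -0.69, -0.71 and 1.01. The signs were opposite on all 3 arrays. Of 238 genes with 2 probes and at least 3 shared arrays, 8 (3.36%) had opposite signs on every shared array. Over these genes 36.5% of shared array values had opposite signs. The 3.36% includes genes with more than 3 shared arrays, so it is not a like comparison for Nr1d2. Which of the 2 probes follows the transcript was not tested, so each statement on Nr1d2 holds for its main probe.

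Clock, the activator that partners with Arntl, was measured more tightly than nearly any other gene. Its probe read -0.49 and -0.71 in pair 1, -1.28 and -1.29 in pair 2, 0.43 and 0.23 in pair 3, 0.27 and 0.24 in pair 4, and -0.54 and -0.52 in pair 5. The arrays of pairs 1, 2 and 5 were all below 0 and those of pairs 3 and 4 all above it. The mean was -0.37 ± 0.67 (SD, n = 5 pairs, 1.29-fold lower; 95% interval -0.90 to 0.16; limma adjusted p = 0.596). Without pair 2, the lowest, the mean was -0.14. The male pairs hold the lowest and the highest Clock value. The limma test of the female against the male pairs did not pass (adjusted p = 0.824) and, with 1 female pair, does not show that they are alike.

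The spread of Clock and Nr1d2 between pairs was larger than that between arrays of the same RNA. The SD of the 5 pair values was 0.67 for Clock and 0.86 for Nr1d2, above 92.7% and 96.7% of the 3612 probes with 10 values, while an array deviated from its pair mean by a root mean square of 0.07 for Clock, among the lowest 1.05% of probes, and 0.24 for Nr1d2. A limma F test of differences among pairs, with the dye orientation as a term, called both (adjusted p = 0.000406 for Clock and 0.000490 for Nr1d2), as it did 29.5% of probes. Against 0, Clock was lower in pairs 1 and 2 (adjusted p = 0.00828 and 0.000387), where 20.7% and 11.9% of probes were called lower. Nr1d2 was lower in pairs 2 and 3 (adjusted p = 0.00864 and 0.00856; 11.9% and 2.57% of probes called lower) and higher in pair 5 (adjusted p = 0.00505; 3.41% called higher). In pair 4, where 4.54% of probes were called higher and 2.55% lower, neither gene passed, and in pairs 1 and 2 neither was among the 14.8% and 7.83% called higher. These limma tests, added after the data were seen, take their spread from repeated arrays of the same extracts, so they compare the 2 mice of a pair and not the genotypes.

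**Figure D2:**
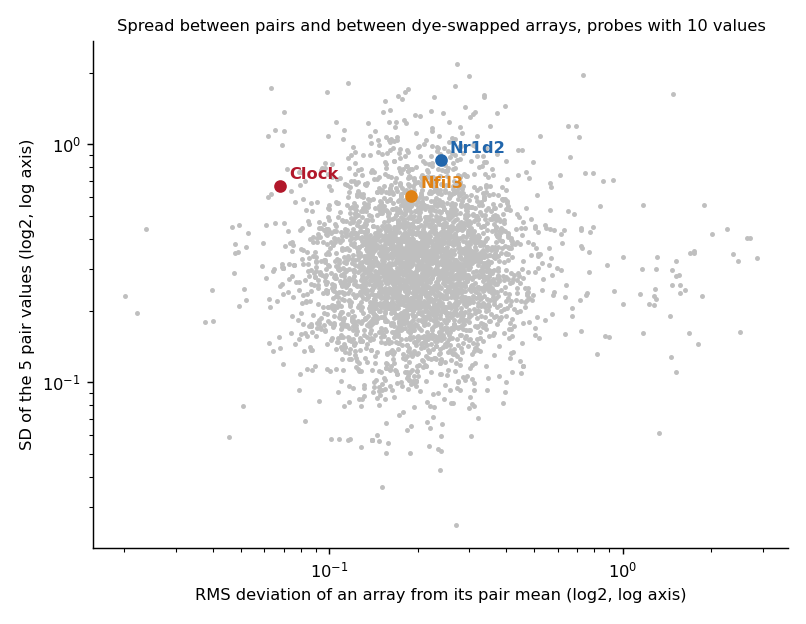
SD of the 5 pair values (y axis, log2, log scale) against the root mean square deviation of an array from its pair mean (x axis, log2, log scale) for the 3612 probes with 10 values, in grey. Clock, Nr1d2 and the related gene Nfil3 are marked; Clock lies at the far left at 0.07 and Nr1d2 among the highest SDs at 0.86.

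Of the repressors, Per2 alone had enough values for a test. It read -0.60 and -0.58 in pair 1, -0.60 and -0.23 in pair 3, -0.15 and -0.37 in pair 4, and 0.15 and 0.31 in pair 5; in pair 2 it had 1 array, at 0.61. The arrays of pairs 1, 3 and 4 were below 0 and those of pairs 2 and 5 above it. The mean was -0.26 ± 0.35 (SD, n = 4 pairs; 95% interval -0.64 to 0.13; limma adjusted p = 0.607). With the lone array of pair 2 admitted it was -0.08 ± 0.49 (SD, n = 5 pairs).

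The other repressors were thinly measured. The first Per1 probe read 0.47 in pair 1, 1.02 in pair 4 and 0.55 in pair 5, each with double-null RNA in channel 1, and was blank on every array of the other orientation. Its mean over these arrays was 0.68 ± 0.30 (SD, n = 3 pairs) and did not pass in limma (adjusted p = 0.221 over arrays of that orientation), and a dye effect cannot be told apart from a difference. The second Per1 probe read 0.52 in pair 4 and -1.07 in pair 2, on arrays of opposite orientation. Per3 had 1 value, 1.04 in pair 5.

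Cry1, which acts with the Per proteins, had values on 5 arrays of 1 probe and none on the other probe. It read -0.64 and -0.57 in pair 4, -0.48 in pair 3, 0.22 in pair 5 and 0.41 in pair 1. Arntl, the partner of Clock, had 2 values, 0.56 in pair 3 and 0.18 in pair 4. Both Arntl values lie above 0 in the pairs in which Clock did. They come from arrays with double-null RNA in channel 1, so a dye effect cannot be told apart from a difference.

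**Figure D3:**
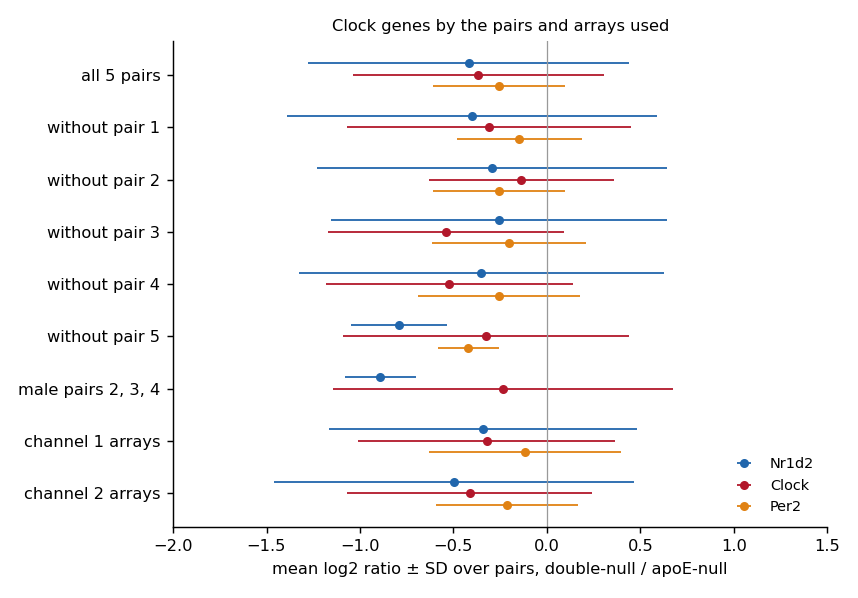
Mean log2 ratio ± SD over pairs (x axis, double-null over apoE-null) of Nr1d2, Clock and Per2 with all pairs, without each pair in turn, in the 3 male pairs and in each dye orientation (rows). All means lie below 0; the Nr1d2 mean goes from -0.42 with all pairs to -0.79 without pair 5 and -0.89 in the male pairs, where Per2 has too few values.

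Whether the mice of a pair may have stood at different phases of the clock was described by the day arm minus the night arm. Only genes with values on both arrays of a pair entered. For each pair the mean of the day and evening genes (Nr1d2 and, outside pair 2, Per2) was set against that of the night genes (Clock, with Cry1 in pair 4). The difference was 0.06 in pair 1, 0.37 in pair 2, -1.07 in pair 3, -0.30 in pair 4 and 1.18 in pair 5. It lay above 0 in 3 pairs and below 0 in 2, with a mean of 0.05 ± 0.83 (SD, n = 5 pairs), so no direction was shared by the pairs.

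The arms had opposite signs in pairs 3 and 5 and the same sign in pairs 1, 2 and 4. In pair 3 the day genes averaged -0.74 and Clock 0.33. In pair 5 the day genes averaged 0.65 and Clock -0.53. Clock, the only night gene there with both arrays, did not pass against 0 (limma adjusted p = 0.301 in pair 3 and 0.0553 in pair 5, against array error). On single arrays Cry1 was at -0.48 in pair 3 and 0.22 in pair 5, opposite in sign to Clock. Arntl was at 0.56 in pair 3, with the sign of Clock. In pair 2 Nr1d2 and Clock were both low, at -0.92 and -1.29. In pair 4 Nr1d2 was at -0.69 and Clock at 0.25, and Cry1 at -0.61 brought the night mean to -0.18. The sources used here do not give the hour of collection. Its part in these values was not tested, and within a pair it cannot be told apart from genotype.

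Nfil3, which the Nr1d receptors repress, itself represses D-box genes. Its pair values were -0.19, 0.23, 0.89, 0.29 and -0.75 in pairs 1 to 5, opposite in sign to Nr1d2 in 4 of 5 pairs; 18.2% of all probes with 5 pair values were opposite in at least 4. Its mean was 0.09 ± 0.61 (SD, n = 5 pairs, limma adjusted p = 0.878), and it was higher in pair 3 and lower in pair 5 against array error (limma adjusted p = 0.0142 and 0.0301; 1.88% of probes called higher in pair 3 and 3.74% lower in pair 5). Among 3298 probes with 1 gene symbol and 5 pair values, Nfil3 was the second nearest to the sign-turned pattern of Nr1d2, after Ephx2, a soluble epoxide hydrolase. The root mean square difference was 0.49 for Nfil3 and 0.44 for Ephx2.

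Nearest to Nr1d2 itself were Cd84, an adhesion receptor of leukocytes (root mean square difference 0.23), the stress gene Gadd45a (0.28), Clec7a, the β-glucan receptor of myeloid cells (0.30), and Evi2a (0.30), against a median of 0.92 over all probes. Of 12 macrophage marker genes 10 were tested, and all 10 had a mean below 0, as had 2508 of 4299 genes. Of the 10, 0 passed, and 6 had an unadjusted p under 0.05 in limma, as 406 of 4299 genes did. The pair medians of these markers were -1.13, -0.37, -0.68, -0.44 and 0.31 in pairs 1 to 5, below 0 where Nr1d2 was and above 0 in pair 5. The sizes did not follow Nr1d2 within pairs 1 to 4: pair 1 had the lowest macrophage median and the Nr1d2 value nearest to 0. The arrays give ratios and no levels, so whether defining markers were near 0 is not known, and in bulk tissue fewer cells of a type and less RNA per cell cannot be told apart. The part of macrophage content in the Nr1d2 ratio was not tested.

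**Figure D4:**
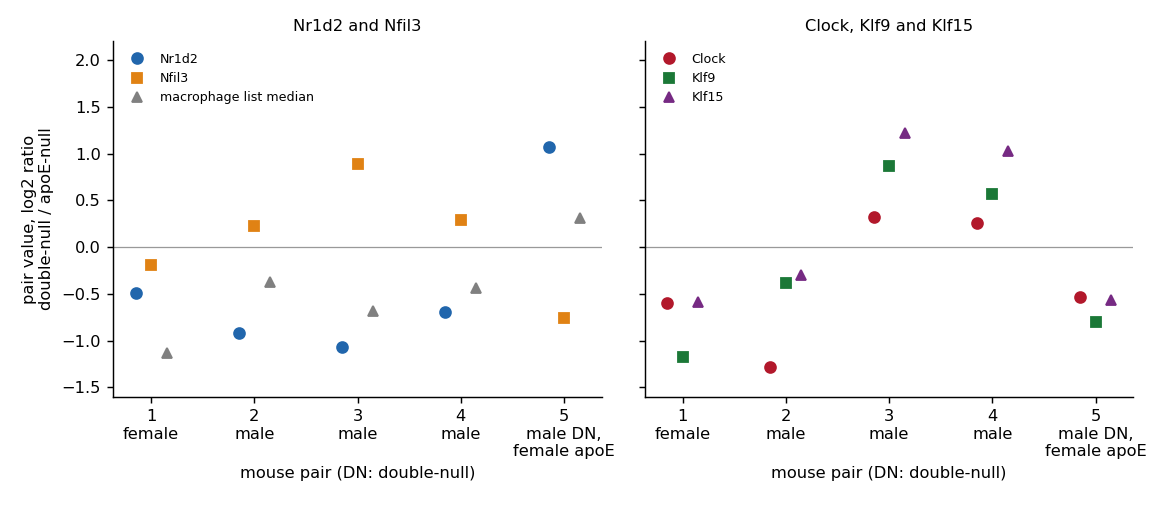
Pair values (y axis, log2 ratio of double-null over apoE-null) by mouse pair (x axis, with its sexes). Left, Nr1d2 and Nfil3 with the median of the macrophage markers; right, Clock with Klf9 and Klf15. Nr1d2 and the macrophage median lie above 0 in pair 5 only, and Clock, Klf9 and Klf15 lie above 0 in pairs 3 and 4 only.

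Nearest to Clock were Actn4, an actin cross-linker (root mean square difference 0.19), the RNA helicase gene Ddx3x (0.21), Sh3bgrl (0.24) and Rftn2 (0.24), against a median of 0.74. With the sign turned they were Ss18l2 and Olfr661 (0.24 each). Both clock-controlled and glucocorticoid-induced, the transcription factor genes Klf9 and Klf15 had the sign of Clock in every pair, as 5.98% of all probes did. Klf9 read -1.17, -0.38, 0.86, 0.57 and -0.80 in pairs 1 to 5, and Klf15 read -0.58, -0.30, 1.22, 1.03 and -0.57. Neither passed the test between the genotypes (limma adjusted p = 0.819 and 0.843). These 2 genes, and Tsc22d3 in the next paragraph, were named after their values were seen.

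Glucocorticoids, which rise in blood with the daily cycle and with stress, induce Per1, and a list of their targets was described by pair. The median of its 9 tested genes was -1.42, 0.65, 0.78, 0.94 and -1.15 in pairs 1 to 5. Tsc22d3, a direct target that is also in the list of clock outputs, as Klf9 is, read -1.84, 1.58, 1.79, 1.86 and -1.24. The first Per1 probe, with values in 1 dye orientation only, was above 0 in pairs 1 and 5, where the list was low. It was also above 0 in pair 4, where the list was high. The second Per1 probe read -1.07 in pair 2 and 0.52 in pair 4, both pairs in which the list was high. Clock shared the sign of the list in pairs 1, 3, 4 and 5 and not in pair 2. Of the 9 genes 1 fell, Lcn2, a siderophore-binding protein also induced by interleukin-1, and 8 did not pass. The Lcn2 mean was -1.25 ± 0.26 (SD, n = 3 pairs, limma adjusted p = 0.0430 over 4299 genes, of which 0.186% were called lower). Lcn2 had pair values in pairs 1, 2 and 5 alone, so without any of these it had too few values for the test. Without pair 3 or without pair 4 its pair values stayed the same, and it was not called.

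Other genes of the clock did not pass the test. Of 53 genes in the lists of other core clock genes, clock kinases, phosphatases and ligases, and clock outputs, 21 were tested, 0 passed in limma and 0 had an unadjusted p under 0.05, against 406 of all 4299 genes; the same background holds for the lists that follow. Of 13 other core genes 2 were tested: Nfil3, above, and Bhlhe40, an E-box repressor, at 0.27 ± 0.29 (SD, n = 3 pairs). Of 16 enzymes 3 were tested, with a median of -0.15. All 3 had means below 0, as had 2508 of 4299 genes. Csnk1d, the casein kinase that marks Per proteins for degradation, was at -0.22 ± 0.23 and Gsk3b at -0.15 ± 0.19 (SD, n = 5 pairs each).

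Of 24 outputs 16 were tested, 8 with means above 0 and 8 below, with a median of 0.00 beside -0.04 over all genes. Pdk4, which inhibits pyruvate dehydrogenase, was at 0.83 ± 1.40 (SD, n = 4 pairs), from -1.02 in pair 5 to 2.31 in pair 4. Klf10 was at -0.21 ± 0.33 and Fmo2, a monooxygenase, at -0.22 ± 0.54 (SD, n = 5 pairs each). Gpcpd1 was at -0.27 ± 0.39 (SD, n = 5 pairs). Over these lists and the members, 18 probes had 10 values, and 10 of them differed among pairs in the limma F test (55.6%, against 29.5% of all probes); the lists were chosen with results of these data known.

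Transcripts tied to the daily rhythm of body temperature and to tissue handling did not pass either. Of 11 tested genes of the temperature list 0 passed, with 0 at an unadjusted p under 0.05 in limma; the cold-inducible Cirbp was at 0.22 ± 0.20 (SD, n = 4 pairs), Rbm3 at 0.16 ± 0.37 and the chaperone Hsp90aa1 at -0.38 ± 0.74 (SD, n = 5 pairs each). Hsp90aa1 had pair values of -1.02, -1.15, 0.63, 0.00 and -0.35, high in pair 3 and low in pairs 1 and 2 as Clock was. Of 11 tested immediate early genes, with their probes averaged, 0 passed and 0 had an unadjusted p under 0.05 in limma. Of the 11, 10 had means below 0, as had 2508 of 4299 genes, and Fos was at -0.28 ± 0.25 (SD, n = 5 pairs). Its 2 probes differed, at -0.10 (n = 5 pairs, limma unadjusted p = 0.36) and -0.55 (n = 4 pairs, limma unadjusted p = 0.0237, adjusted p = 0.415).

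Marker lists of cell types of the vessel and its surroundings are given by their pair medians, with no test of any list. Adipocyte markers (12 of 16 tested) had pair medians of 1.80, -0.31, -0.38, 0.77 and -0.38 in pairs 1 to 5, and brown fat markers (6 of 8) 2.30, 0.18, -0.58, 1.44 and -0.23. Smooth muscle markers (7 of 10) had -0.50, -0.22, 0.32, 0.07 and -0.37. These medians had the sign of Clock in all 5 pairs, as had those of the temperature list (-0.25, -0.15, 0.37, 0.15 and -0.26). Single smooth muscle genes differed: in pair 4, where the median was near 0, Smtn was at -0.42 and Tpm2 at 0.43. Endothelial markers (7 of 10) lay between -0.36 and 0.12, and striated muscle markers (5 of 12) between -0.93 and 1.86, the latter in pair 2. No member of these 5 cell type lists passed in limma, and 1, in striated muscle, had an unadjusted p under 0.05. The part of tissue makeup in the Clock and Nr1d2 values was not tested.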

How the data were processed

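Per the labels, the authors scanned the slides (GenePix 4000B), extracted spots with GenePix Pro 3.0 and used GeneSpring. They deposited log2 ratios, which the titles describe as apoE-null over double-null; how these were normalized and why cells are blank is not stated in the sources used here. Between 49.1% and 67.0% of an array was blank. Signs were turned, the 2 dye-swapped arrays of a pair were averaged to 1 replicate, and a probe needed both arrays in 3 pairs (4866 probes). The test of each probe's mean against 0 used limma 3.58.1 in R 4.3.3 (two-sided, Benjamini-Hochberg over all probes, threshold 0.05); lists used 4299 genes with their probes averaged. Dye effects and the female against the male pairs were tested likewise. The fit was tested on simulated data.

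Gene symbols are those of the platform annotation, brought up to date through RefSeq by Entrez identifier (12009 of 12143 single symbols matched). The files name no genome build; coordinates belong to the RefSeq sequences. The members and lists were chosen with earlier results of these data known. Named genes are the members, the called or up to 4 lowest-p genes of each list (given for the clock, temperature and immediate early lists, and as medians for cell types), and the 4 nearest and 2 nearest sign-turned patterns. Those were planned for Dbp and Arntl, which lack pair values, and made for Nr1d2 and Clock instead. Mice carry separate numbers in the labels, so the p-values rest on the spread among pairs of animals. The day arm minus the night arm is a description, given with no test.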

Additional observations from a re-analysis of the deposited data

Results flagged for a closer look

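The Nr1d2 value of pair 5, 1.07, was far from the rest (-1.07 to -0.49). Among the 59 groups of 4 or 5 pair values examined, the endothelial marker Eng in pair 1 (-0.87) and the muscle gene Mb in pair 2 (2.74) also stood apart. Chance alone sets a value apart in about 1 in 20 of the groups examined, near the share seen here. For Tsc22d3, named after its values were seen, the female pair was below the mean of the male pairs (female minus male -3.59 on the log2 scale). It was picked out by a limma term for that difference, which rests on 1 female pair. Pair 5, of unlike sexes and in neither arm, was at -1.24, also below the male pairs (1.58 to 1.86). The pattern was not particular to Tsc22d3. In the glucocorticoid list Mt2 (-2.58 and -2.51), Cdkn1a (-1.42 and -2.20) and Ddit4 (-2.28 and -1.49) were also below 0 in pairs 1 and 5. All of them were above 0 in pairs 2 to 4. Other genes of the list did not share the pattern. Sgk1 was at -0.14 in pair 3, and Klf9 at -0.38 and Lcn2 at -1.06 in pair 2. In pair 1 Pdk4 was at 1.34 and the 2 Angptl4 probes at 0.35 and 0.93. These genes too were named after their values were seen.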

How the results depend on the processing

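The mean log2 ratios of Nr1d2, Clock and Per2 stayed below 0 in every setting run, and none was called except Nr1d2 in the 3 male pairs (-0.89), which brought the count of clock genes called from 0 to 1. Leaving out each pair gave -0.79 to -0.26 for Nr1d2, -0.54 to -0.14 for Clock, -0.42 to -0.15 for Per2, 0 to 0 clock genes called, and -0.23 to 0.33 for the day arm minus the night arm. With the replicate block, a fit of all 10 arrays with the pair as a random block, the means were -0.42, -0.37 and -0.13. Over the clock, glucocorticoid, immediate early and temperature lists together, the count of 1 gene called (Lcn2, of the glucocorticoid list) became 0 to 0 without each pair, 0 with single arrays admitted and 3 in the male pairs. Without pair 1, 2 or 5 Lcn2 had too few pair values to be tested, so those counts do not show how firm its call is. Both clock genes with 10 values, Clock and Nr1d2, differed among pairs in the limma F test, which called 29.5% of all probes. When a pair was left out 1 to 2 clock genes did, 1 without pair 5. Over all probes 38 were called, 0 to 25 without each pair (0 without pair 4), 59 and 119 in single orientations and 55 in the male pairs. The causes were not tested.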
